A study of Danio rerio with 2 samples.

Results

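Heart muscle genes were examined in whole zebrafish larvae that had or had not been swim-trained. The set was chosen by name, with earlier results of these data known. It held 10 genes of the heart's contractile apparatus, its hormones and a cardiac transcription factor. These were cmlc1, myl7, myh7l, vmhc, myh6, tnnt2a, tnnc1a, nppa, nppb and nkx2.5. A probe was assigned to a gene through its RefSeq accession, with older symbols allowed, so that myh7l includes the former vmhcl and vmhc is the gene that RefSeq lists as myh7. Of the 12900 genes named on the array these 10 had 23 of the 43603 probes. No probe was paired here with nppb, and the 2 probes of nkx2.5 were not well above background in every channel. The other 8 genes were measured by 21 probes, a measured probe being well above background in both pools on both arrays.

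The trained group was a pool of RNA from 10 wild-type larvae (Wageningen wild type crossed with Tubingen wild type, listed as Zod2) trained from 5 to 10 days after fertilisation in 3-hour sessions, and the control group was a pool from 10 larvae of the same cross labelled as control. All fish were sampled at 10 days, and how the control larvae were kept is not given in the labels used here. The same 2 pools were hybridised on 2 Agilent 2-colour arrays with the dyes exchanged, so the arrays are technical repeats of 1 replicate. With 1 pool per condition no spread between fish can be had, and no p-value is given. All values describe these pools.

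The zebrafish heart has a single atrium and a single ventricle, each with its own myosin heavy chain. In every sarcomere, myosin heavy chains carry an essential and a regulatory light chain, and the troponin complex on the thin filament couples calcium to contraction. Cardiomyocytes also secrete natriuretic peptides, which are widely used as markers of load on the heart muscle.

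The median spot signal lay between 136 and 178.5 intensity units over median backgrounds of 24 to 82.5, and depending on the channel 71.3% to 84.2% of spots passed Feature Extraction's call of signal well above background. Between the arrays, the ratio of trained over control correlated across the 30886 measured probes with a Pearson r of -0.04 (0.11 for the deposited ratios). These points share the 2 pools and the array design. The SD of the mean ratio of both arrays was 0.08 (log2) between spots of a probe and 0.12 between probes of a gene. The 0.08 rests on the 20 probes with replicate spots, and each member probe had 1 spot. The SD of a single-array ratio was 0.28 between the arrays. The SDs between spots and between arrays are technical errors, and the number of arrays limits the precision. What makes probes of a gene differ was not examined. Over all measured genes the SD of the mean log2 ratio was 0.19, and that of the part changing sign between the arrays was 0.20. The latter comes from the same differences between arrays as the 0.28, on the scale of a mean of both arrays. The dye orientation is that of the sample titles and channel labels. The series' design text gives the same orientation for both arrays.

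Within the heart muscle genes, the myosin light chains cmlc1 and myl7, the ventricular myosin heavy chain-like gene myh7l and the troponin T gene tnnt2a were higher in the trained pool on both arrays, by 1.27-fold to 1.53-fold on the mean of the arrays. The chamber myosin heavy chain genes vmhc and myh6 had mean log2 ratios of 0.01 and 0.14. For troponin C (tnnc1a) and the natriuretic peptide gene nppa the arrays were opposite in sign for the brightest probe. Under the deposited ratios that probe was above 0 on both arrays for both genes. For nppa it stood at 0.02 on array 2, with a deposited error of 0.21. The other nppa probes had deposited log2 ratios above 0 on array 1 and of -0.07, -0.17 and -0.18 on array 2. No measured member was lower in the trained pool on both arrays, against 22.1% of all measured genes.

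Of the 8 measured members 5 were higher on both arrays, against 24.3% of 11121 measured genes, and 3 were opposite on the arrays, against 53.6%. The count of 5 was 7 under the deposited ratios, against 25.1% of all measured genes. It was 6 when all probes of a gene were averaged, against 25.7%, or the arrays were centred on their medians, against 24.4%. At least 1.2-fold higher on both arrays were 4 of 8, against 3.74% of all measured genes. The count of 4 was 3 under the deposited ratios, against 5.16% of all measured genes. The brightest probe of tnnt2a was there past 1.2-fold on array 1 alone. The count was 2 when the arrays were centred on their medians, against 3.82%, and 1 when all probes of a gene were averaged, against 3.33%. No member was at least 1.5-fold higher on both arrays, against 0.638% of all measured genes, and none was 1.5-fold lower, against 0.054%. The median log2 ratio of the 8 genes was 0.24, with 0.26 on array 1 and 0.23 on array 2, beside 0.00 over all measured genes, and was 0.14 under a looser detection filter that adds nkx2.5. Centring on medians also moved the balance of all measured genes, to 24.4% higher and 12.6% lower on both arrays, and to 3.82% and 0.432% past 1.2-fold. Over single probes, 14 of the 21 were higher on both arrays, against 22.9% of all measured probes, and 7 were at least 1.2-fold higher, against 3.13%. Probes of a gene share a target and are not independent. Because the members were chosen with earlier results of these data known, the counts describe the set and do not test it.

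**Figure D1:**
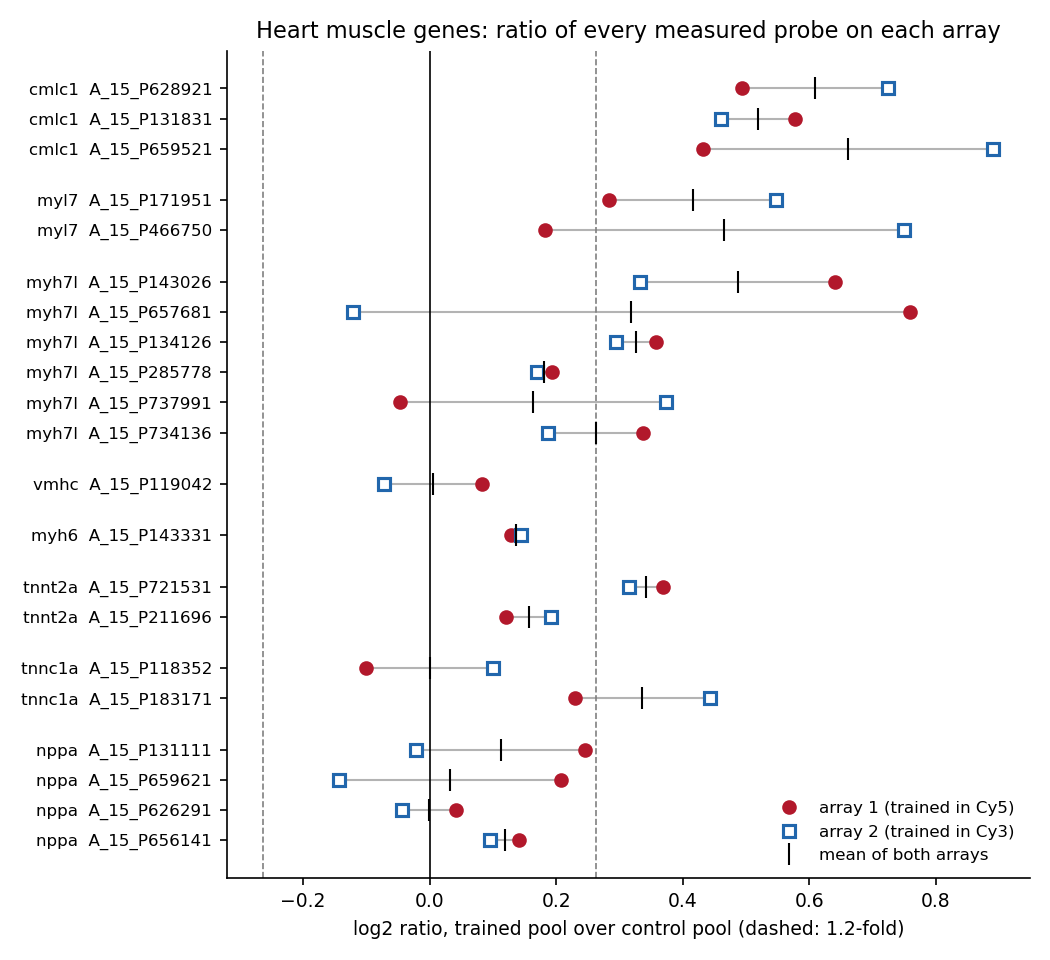
Log2 ratio of the trained over the control pool (horizontal axis) for each of the 21 measured probes of the heart muscle genes, with a filled circle for array 1, an open square for array 2, a bar for their mean and dashed lines at 1.2-fold. All 3 probes of cmlc1 lie past 1.2-fold on both arrays, and 3 of the 4 probes of nppa have the arrays on opposite sides of 0.

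The essential light chain of cardiac myosin, cmlc1, had the highest ratio of the set. The signal of its brightest probe (A_15_P628921), normalised per channel and with the offset of 50 still in it, was 3884 on array 1 and 3760 on array 2 in the trained pool, against 2757 and 2276 in the control pool. Both trained values lay above both control values. The share of all measured genes with such a lack of overlap is not given, here or below. It is therefore not evidence beyond the ratios. The log2 ratio was 0.49 on array 1 and 0.72 on array 2, with a mean of 0.61, which is 1.53-fold higher and stands at rank 107 of 11121 genes. The other probes of cmlc1 repeated the direction. A_15_P131831 gave 2242 and 2044 in the trained pool, against 1502 and 1485 in the control pool, with log2 ratios of 0.58 and 0.46. A_15_P659521 gave 1040 and 1048 in the trained pool, against 771 and 565 in the control pool, with log2 ratios of 0.43 and 0.89. The mean ratios of the 3 probes ran from 0.52 to 0.66, with an SD of 0.07, against 0.12 for probes of a gene over the whole array. With the sign of array 2 left as scanned, the Cy5 over Cy3 log2 ratio of the brightest probe was 0.49 on array 1 and -0.72 on array 2. This restates the ratios of trained over control and is not further evidence. The error that Feature Extraction deposited for the log2 ratio of this spot was 0.21 on each array, around deposited log2 ratios of 0.37 and 0.62.

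The regulatory light chain myl7, formerly cmlc2, is known for the promoter that drives reporters in zebrafish cardiomyocytes. Its brightest probe (A_15_P171951) had signals of 2289 and 2691 in the trained pool, against 1882 and 1840 in the control pool. The pools did not overlap. The log2 ratios were 0.28 and 0.55, with a mean of 0.42 or 1.33-fold, at rank 312. The second probe (A_15_P466750) had 1596 and 1628 in the trained pool, against 1406 and 968 in the control pool, with log2 ratios of 0.18 and 0.75. Its direction was the same, while on array 1 its ratio was below 1.2-fold. In both light chain genes the ratio of the brightest probe was larger on array 2, where the trained pool carried Cy3.

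The myosin heavy chain gene myh7l was covered by 6 measured probes. The brightest (A_15_P143026) had signals of 1228 and 1016 in the trained pool, against 787 and 806 in the control pool, without overlap. Its log2 ratios were 0.64 and 0.33, with a mean of 0.49 or 1.40-fold, at rank 212. Here the larger ratio was that of array 1. A_15_P134126 gave 407 and 330 in the trained pool, against 318 and 269 in the control pool, with log2 ratios of 0.36 and 0.29. A_15_P657681 had 706 and 516 in the trained pool, against 417 and 561 in the control pool, and its log2 ratios of 0.76 and -0.12 were opposite. On array 2 the trained signal of this probe was the lower one. The 3 dimmest probes had signals of 125 to 176 in the trained pool, against 110 to 146 in the control pool, and mean log2 ratios of 0.16 to 0.26. The mean over the 6 probes was 0.29 (SD 0.12), below the value of the brightest probe. In all, 4 of the 6 probes were higher on both arrays and 2 were opposite. Of all measured probes 22.9% were higher on both arrays. The second opposite probe, A_15_P737991, was among the 3 dimmest, where the offset compresses the ratios, and had log2 ratios of -0.05 and 0.37. Its deposited log2 ratios were 0.38 and 0.72, both above 0. Those of A_15_P657681 were 0.71 and -0.04, still opposite.

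The ventricular myosin heavy chain gene vmhc, the neighbour of myh7l in the RefSeq annotation with no protein-coding gene between them, had a ratio near 0. Its single probe (A_15_P119042) had signals of 652 and 656 in the trained pool, against 615 and 689 in the control pool. The trained values lay between the control values. The log2 ratios were 0.08 and -0.07, with a mean of 0.01. The difference between the ratios of vmhc and myh7l rests on 1 probe of vmhc and was not tested, and cross-hybridisation between these related genes was not examined. The atrial myosin heavy chain gene myh6, formerly amhc, had signals of 308 and 311 in the trained pool, against 281 on each array in the control pool. Its single probe (A_15_P143331) was higher on both arrays, with log2 ratios of 0.13 and 0.14, at percentile 79.6 of all measured genes. The mean ratio is close to the SD between probes of a gene. It is below the SD of 0.20 of the part changing sign between the arrays.

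**Figure D2:**
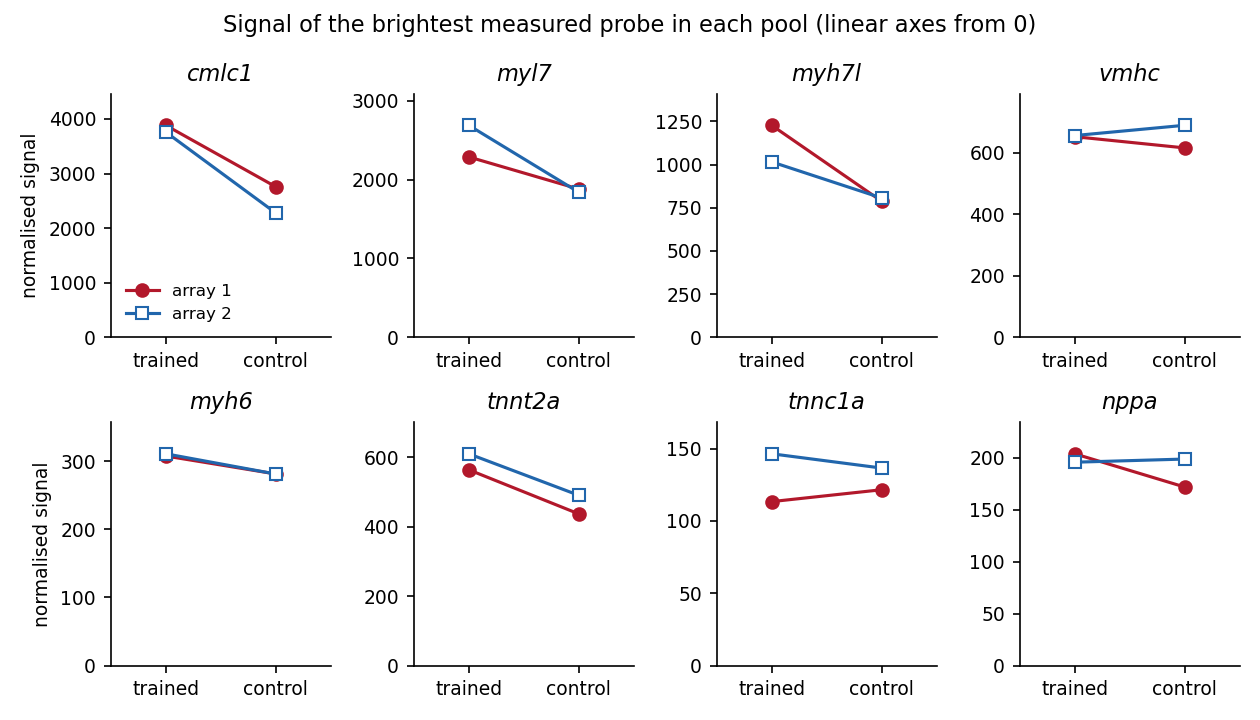
Normalised signal (vertical axis, linear intensity units from 0, separate for each gene) of the brightest measured probe of 8 heart muscle genes in the trained and the control pool, with a line for each array. The lines of cmlc1, myl7, myh7l and tnnt2a run lower in the control pool on both arrays, and those of vmhc, tnnc1a and nppa have opposite slopes.

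In the thin filament, tnnt2a encodes cardiac troponin T, which anchors the troponin complex to tropomyosin and whose loss stops the heartbeat in the zebrafish silent heart mutant. Its brightest probe (A_15_P721531) had signals of 564 and 610 in the trained pool, against 437 and 491 in the control pool. The groups did not overlap. The log2 ratios of 0.37 and 0.31 had a mean of 0.34 or 1.27-fold, at rank 516. The second probe (A_15_P211696) had 391 and 440 in the trained pool, against 359 and 385 in the control pool, with log2 ratios of 0.12 and 0.19. It was higher on both arrays, below 1.2-fold on each, and the mean over both probes was 0.25. Under the deposited ratios this second probe was past 1.2-fold on both arrays, with 0.39 and 0.27. The brightest probe was then past 1.2-fold on array 1 alone, with 0.52 and 0.13.

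The troponin C gene tnnc1a, whose product is the calcium sensor of the complex, was dim. Its brighter probe (A_15_P118352) had signals of 113 and 146 in the trained pool, against 122 and 137 in the control pool, and log2 ratios of -0.10 and 0.10. These values overlap and give no direction. The other probe (A_15_P183171) had 113 and 119 in the trained pool, against 96.2 and 87.1 in the control pool, with log2 ratios of 0.23 and 0.44. The 2 probes thus differed by more than the SD between probes of a gene, and the gene's ratio depends on which is used. With signals this near the offset the ratios are compressed. Under the deposited ratios the brighter probe gave 0.22 ± 0.23 and 0.28 ± 0.23, where the error is that of Feature Extraction for the spot, and the other probe gave 0.60 ± 0.25 and 1.13 ± 0.31.

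The natriuretic peptide gene nppa was also dim. Its brightest probe (A_15_P131111) had signals of 204 and 196 in the trained pool, against 172 and 199 in the control pool. The log2 ratios of 0.25 and -0.02 had a mean of 0.11, and the pools overlapped. Of its 4 probes 1 was higher on both arrays (A_15_P656141, with log2 ratios of 0.14 and 0.10) and 3 were opposite, each higher on array 1. The share of all measured probes higher on both arrays was 22.9%. Under the deposited ratios A_15_P656141 was opposite too, with 0.43 on array 1 and -0.18 on array 2. The mean log2 ratios of the 4 probes ran from 0.00 to 0.12. These means did not exceed the SD between probes of a gene. They lay below the SD of 0.20 of the part changing sign between the arrays.

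The homeobox gene nkx2.5 encodes an early and lasting regulator of cardiomyocyte identity. For A_15_P629176 the signals were 70.9 and 97.3 in the trained pool, against 69.6 and 119 in the control pool, and 3 of the 4 channels were well above background. For A_15_P141706 the signals were 58.2 and 65.7 in the trained pool, against 63.6 and 67.5 in the control pool, and no channel was well above background. On array 2 both channels of A_15_P629176 were well above background. Its deposited log2 ratio was -1.79 there, with an error of 0.28, against 0.08 with an error of 0.59 on array 1. The main processing gave 0.03 on array 1 and -0.29 on array 2. Because nkx2.5 did not pass the detection rule, it is not among the measured members and enters only the median under the looser detection filter.

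Skeletal muscle genes, which share the sarcomere's plan with the heart, were set beside the members. The dye component is the part of the ratio that changes sign between the arrays. With a single array for each dye orientation, it holds array error as well as any dye effect. For the 8 heart muscle genes the median size of the mean log2 ratio was 0.24 and that of the dye component was 0.11. For 24 measured genes of fast skeletal muscle these were 0.11 and 0.29, and for 13 of slow skeletal muscle 0.08 and 0.18. Over all measured genes they were 0.11 and 0.12. Of the fast muscle genes 18 of 24 were opposite on the arrays, as were 10 of 13 slow muscle genes and 3 of 8 heart muscle genes, against 53.6% of all measured genes. The difference between these lists was not tested, and the skeletal muscle lists were far brighter in the summed signals that follow. The summed signal of the fast muscle genes was 2173391 on array 1 and 1939256 on array 2 in the trained pool, against 1996802 and 2324472 in the control pool, so the pools overlapped. For the slow muscle genes it was 315927 and 266832 in the trained pool, against 269350 and 292887 in the control pool, again with overlap. The summed signal of the 8 heart muscle genes was 9243 and 9386 in the trained pool, against 7053 and 6719 in the control pool. These sums did not overlap. Nor did those of the cardiac growth and stress list described below, although its median log2 ratio was -0.15. Its sums were 11065 and 9839 in the trained pool, against 9589 and 9568 in the control pool. The sums of every other list overlapped. How often gene sets separate in this way was not tested. Of the 9243 on array 1 in the trained pool, cmlc1 made up 3884 and myl7 2289. In RNA of whole larvae a larger share of heart cells and more of these transcripts per heart cell cannot be told apart. With 1 pool per condition, training and other differences between the fish of the 2 pools cannot be told apart either.

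**Figure D3:**
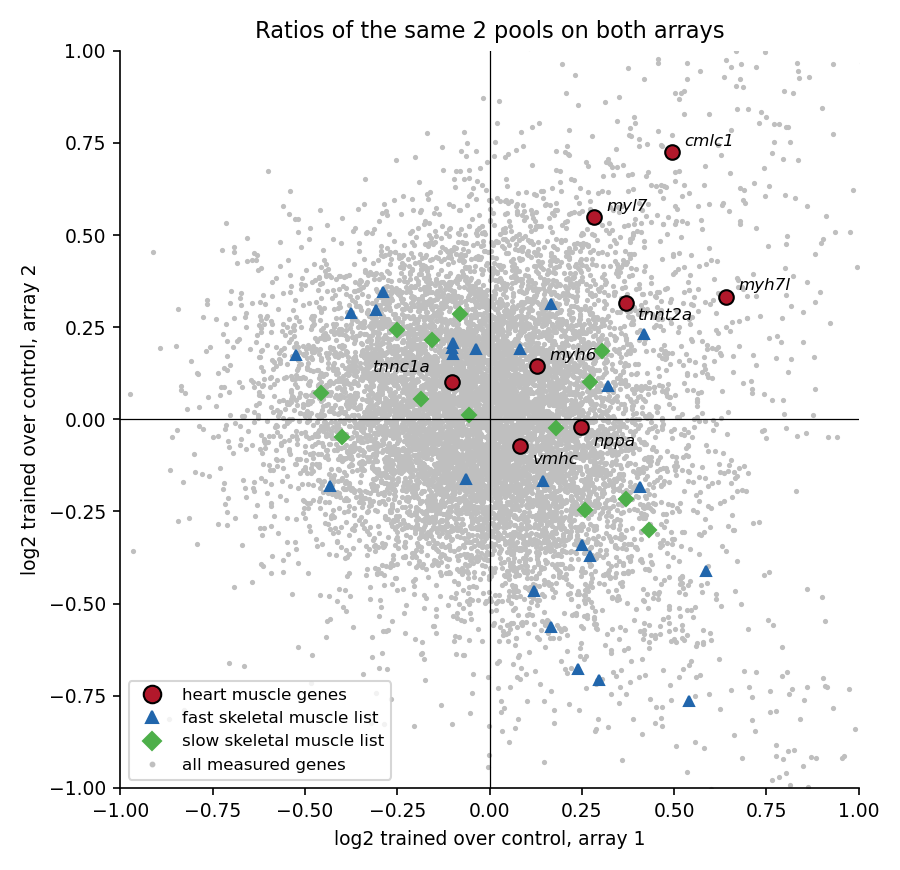
Log2 ratio of trained over control on array 1 (horizontal axis) against array 2 (vertical axis) for the heart muscle genes (red, named), the fast and slow skeletal muscle lists and 11064 of the 11121 measured genes, the other 57 lying outside the axes. The genes cmlc1, myl7, myh7l, tnnt2a and myh6 lie where both ratios are above 0, and most skeletal muscle genes lie where the arrays are opposite.

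Other genes of the heart muscle cell were taken from lists by function. Of 16 measured sarcomere genes, 4 were higher and 2 lower on both arrays and 10 were opposite, and none was past 1.2-fold in either direction. The shares of all measured genes were 24.3% higher, 22.1% lower and 53.6% opposite, with 3.74% higher and 1.35% lower past 1.2-fold. The difference of this and the following lists from those shares was not tested. Their median log2 ratio was 0.02. This list includes genes that skeletal muscle uses too, such as the alpha-actin gene actc1a, whose log2 ratios of 0.29 and -0.57 were opposite. For tnni1b, a troponin I gene of the zebrafish heart, the arrays gave -0.09 and 0.24, and for cardiac myosin-binding protein C (mybpc3) -0.22 and 0.11. The mean ratio had the sign of the brightest probe in 3 of 8 probes of mybpc3 and 2 of 4 of actc1a.

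Among 9 measured genes of calcium handling and conduction 2 were higher and 1 was lower on both arrays and 6 were opposite, with a median of 0.02. The shares of all measured genes were 24.3%, 22.1% and 53.6%. The calcium pump gene atp2a2a, which returns calcium to the sarcoplasmic reticulum in heart and slow muscle, had signals of 10122 and 9597 in the trained pool, against 7888 and 6431 in the control pool. Its log2 ratios were 0.36 and 0.58, with a mean of 0.47 or 1.38-fold, and a second probe gave 0.62 and 0.24. Its paralogue atp2a2b had 637 and 538 in the trained pool, against 803 and 694 in the control pool. The log2 ratios of atp2a2b were -0.33 and -0.37, with a mean of -0.35, from 1 probe, and the pools did not overlap for either gene. These were the 2 genes of the list past 1.2-fold on both arrays, in opposite directions. The share of all measured genes past 1.2-fold on both arrays was 3.74% higher and 1.35% lower. The membrane protein gene popdc2 had log2 ratios of 0.30 and 0.04, and the gap junction gene gja1b 0.48 and -0.28. The mean ratio was above 0, as in the brightest probe, in 2 of 2 probes of popdc2 and 1 of 2 of gja1b.

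Of 12 measured cardiac transcription factor genes 5 were higher on both arrays, none was lower and 7 were opposite, with a median of 0.08. The shares of all measured genes were 24.3%, 22.1% and 53.6%. The homeodomain-only protein gene hopx, known from mouse heart development, had signals of 589 and 485 in the trained pool, against 424 and 380 in the control pool. Its log2 ratios of 0.48 and 0.35 were past 1.2-fold on both arrays. Its second probe gave 0.26 and -0.05. The T-box gene tbx2b had log2 ratios of 0.44 and 0.19, with a mean above 0 in 2 of its 3 probes. The GATA factor genes gave 0.03 and -0.15 for gata4, 0.10 and 0.16 for gata5 and -0.14 and 0.28 for gata6. For hand2 they were 0.05 and 0.12, and for mef2ca 0.26 and -0.64.

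Of 5 measured genes of the natriuretic peptide pathway other than nppa 2 were higher on both arrays, none was lower and 3 were opposite, with a median of 0.05. Beside this list and the next, the shares of all measured genes were 24.3% higher, 22.1% lower and 53.6% opposite. Past 1.2-fold on both arrays these shares were 3.74% higher and 1.35% lower. The clearance receptor gene npr3 had log2 ratios of 0.22 and -0.11. Of 9 measured genes of cardiac growth and stress, 2 were higher and 4 lower on both arrays and 3 were opposite, with a median of -0.15 and none past 1.2-fold on both arrays. Higher were the stretch-responsive gene ankrd1b, with log2 ratios of 0.74 and 0.07, and the myoglobin gene mb, with 0.32 and 0.18. Lower were the growth factor gene nrg1 (-0.06 and -0.24), nrg2a (-0.19 and -0.20), ccn2a (-0.09 and -0.23) and cryaba (-0.38 and -0.18). The signals of nrg1, nrg2a and cryaba were dim, between 111 and 184, where the offset compresses the ratios. For ccn2a the mean ratio was below 0 in 2 of 3 probes.

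**Figure D4:**
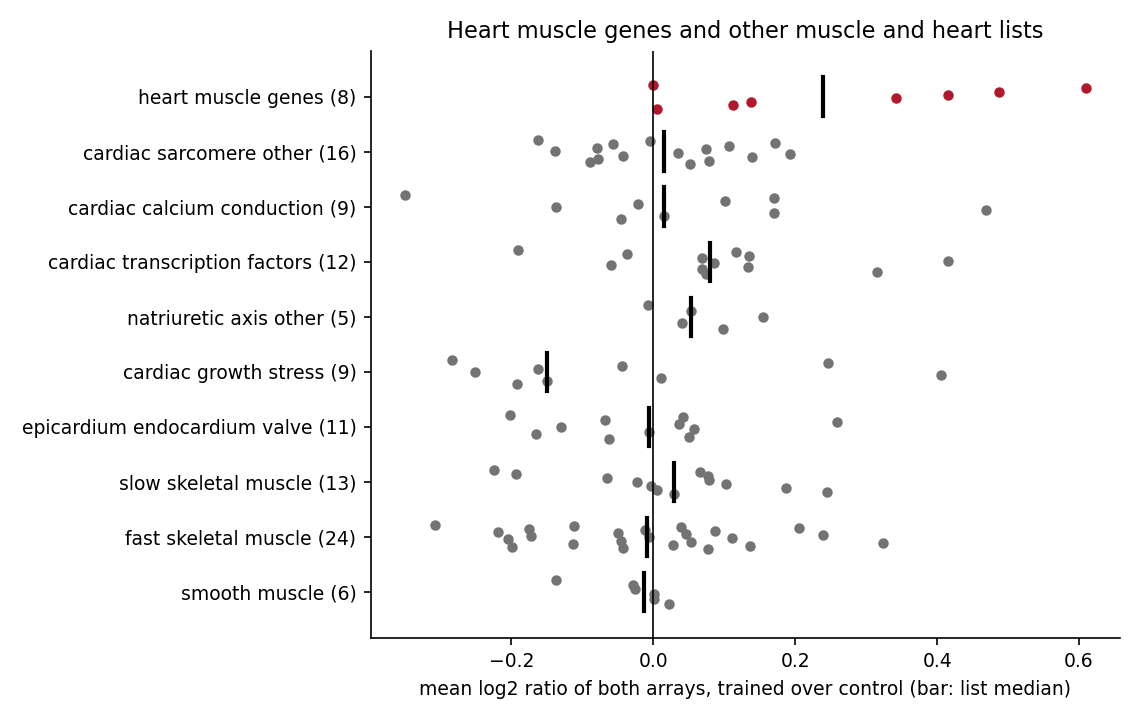
Mean log2 ratio of trained over control over both arrays (horizontal axis) for each measured gene of the heart muscle set (red) and of 9 other lists (grey), with the number of measured genes in brackets and a bar at each list's median. The median of the heart muscle genes is 0.24, and those of the other lists run from -0.15 to 0.08.

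The values of the 8 measured members were recomputed under 7 other ways of processing both arrays. Of these, the looser detection filter left the 8 values unchanged, and the series value table repeats the deposited ratios. The mean log2 ratio of cmlc1 ran from 0.50 to 0.68, that of myl7 from 0.40 to 0.47, that of myh7l from 0.29 to 0.55 and that of tnnt2a from 0.25 to 0.40. All 4 stayed above 0. For vmhc the range was 0.00 to 0.07 and for myh6 0.14 to 0.19. The range for tnnc1a was -0.01 to 0.25, with the highest value under the deposited ratios, and for nppa 0.07 to 0.15.

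**Figure D5:**
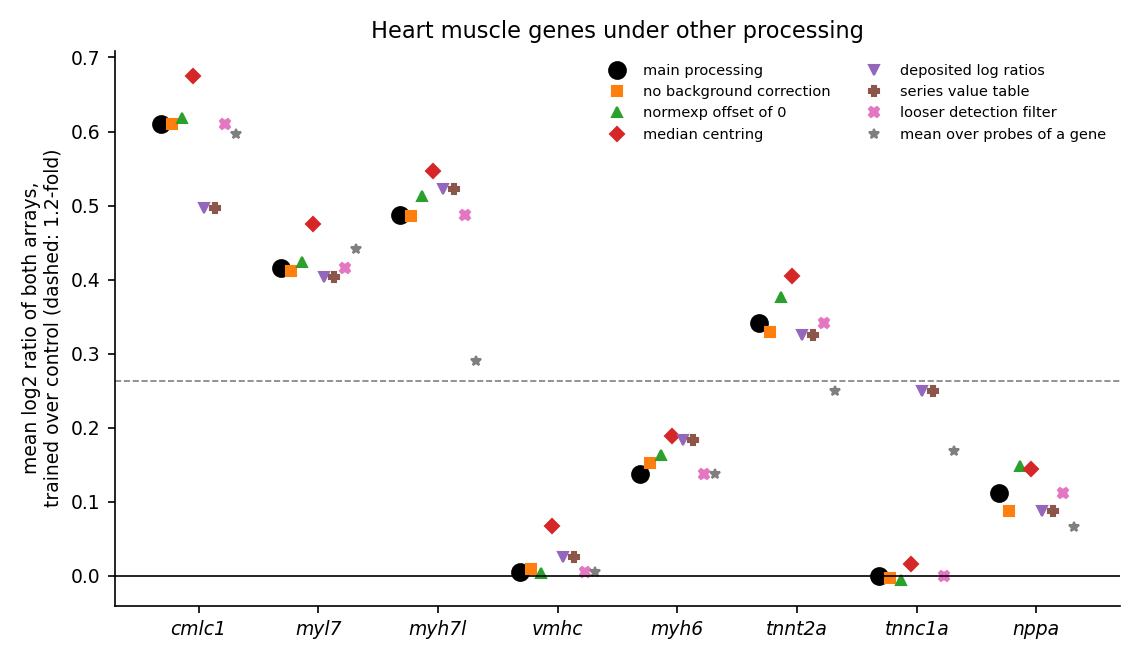
Mean log2 ratio of both arrays, trained over control (vertical axis), of the 8 measured heart muscle genes under the main processing (black) and 7 alternatives, with a dashed line at 1.2-fold. The values of cmlc1, myl7 and myh7l stay above the line, while tnnt2a lies just below it when its probes are averaged.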

How the data were processed

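RNA of 1 trained and 1 control pool was measured on 2 arrays. Per the file headers, the scanner files hold the median spot and background intensity of both channels, flags for outliers and signal above background, and log10 ratios of Cy5 over Cy3 with their errors, which the authors deposited. They were made with Agilent Feature Extraction 10.5.1.1, according to the submitters' processing notes. The deposited series value table holds the same log10 ratios with the sign of array 2 turned (median 0 in each column; its values differed from the scanner files by at most 2e-05 on the log2 scale), so its 2 columns give trained over control. The remaining unit, the deposited flags of 0 or 1, belongs to other values that are not measurements.

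Background was removed from the median intensities by normexp (offset of 50), with loess normalisation within each array, with control and outlier spots at weight 0 (limma 3.58.1, R 4.3.3). Array 2 was sign-turned, spots of a probe were averaged, then the arrays. A gene was its brightest measured probe. Signals per channel came from loess followed by Aquantile. No spot was saturated. RefSeq accessions (assembly GRCz12tu, names only) named 25173 probes and left 18430 unnamed. The size rules were at least 1.2-fold and 1.5-fold on each array, in 1 direction. The normalisation steps were also run on simulated intensities with known ratios. Later steps ran in Python 3.11.15 (numpy 2.4.6, pandas 2.3.3, matplotlib 3.10.9).

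The members and lists were chosen with earlier results of these data known. All members are named, and of other lists the genes past 1.2-fold on both arrays, at most 4 per direction. Other genes named from the lists were chosen after their values were seen.
Alternatives were no background correction, a normexp offset of 0, median centring in place of loess, both kinds of deposited ratio, a looser detection filter, the mean over a gene's probes, and each array alone.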

Additional observations from a re-analysis of the deposited data

How the results depend on the processing

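The median log2 ratio over the measured heart muscle genes, 0.24, was 0.27 with a normexp offset of 0, 0.30 with median centring, 0.29 with the deposited log ratios and with the series value table, 0.21 with the mean over probes of a gene, and 0.14 with the looser detection filter, which adds nkx2.5 as a ninth gene. On single arrays it was 0.23 to 0.26. The count of 4 genes at least 1.2-fold higher on both arrays was 3 with the deposited log ratios and the series value table (without tnnt2a). The share of all measured genes was 5.16% there. The count was 2 with median centring (cmlc1 and myh7l), against 3.82%, and 1 with the mean over probes (cmlc1), against 3.33%. On either array alone 1 gene was at least 1.5-fold higher (cmlc1 on array 2, myh7l on array 1). The share of all measured genes was 2.1% on array 2 and 2.69% on array 1. Lower were 2 genes on array 2, against 47.4% of all measured genes, and 1 gene on array 1, against 50.3%. Median centring moved the median of all genes to -0.08 on array 1 and 0.18 on array 2. The cause of the other moves was not tested. No paired analysis was possible because both arrays hold the same 2 pools and form 1 group. Dim probes limit what can be read of tnnc1a, nppa and nkx2.5. The same holds for other dim genes of the lists, among them nrg1, nrg2a, cryaba, popdc2, tcf21 and tbx18.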

Other observations

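Genes of the heart's other layers and of smooth muscle were also measured. Of 11 genes of epicardium, endocardium and valve 2 were higher on both arrays, 1 was lower and 8 were opposite, with a median log2 ratio of -0.01 and none past 1.2-fold on both arrays. The epicardial genes tcf21 and tbx18 had log2 ratios of 0.01 and 0.10, and of 0.06 and 0.06. The endothelial receptor gene notch1b had -0.10 and -0.30, and the osteopontin gene spp1 had -0.52 and 0.51. A mean ratio below 0, as in the brightest probe, was seen in 1 of 2 probes of notch1b and 1 of 3 of spp1. Of 6 smooth muscle genes none was higher on both arrays, 1 was lower and 5 were opposite, with a median of -0.01. Beside both lists, the shares of all measured genes were 24.3% higher, 22.1% lower and 53.6% opposite. Past 1.2-fold on both arrays these shares were 3.74% higher and 1.35% lower. The difference of the lists from those shares was not tested. The smooth muscle actin gene acta2 had 0.11 and -0.11. These values were chosen after they were seen, and the lists hold genes that other tissues of the larva use too.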
